A study of Saccharomyces cerevisiae with 4 samples.

Results

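With earlier results of these data known, 39 reading frames were listed by gene identity. They are the actin cytoskeleton and polarity genes of budding yeast (Saccharomyces cerevisiae) described here. They code for actin and its turnover factors, the Arp2/3 complex, the coat, bundling, capping and scission proteins of endocytic patches, the formins and polarisome, and the tropomyosins and myosins. Of the 39, 38 appear as rows among the table's 6207 reading frames, and 29 could be tested because all 4 arrays gave a value (74.4%, against 49.6% of all reading frames, 3080 in number). The label of the list was checked by symbol: all 39 systematic names carry the intended gene name in the RefSeq table of the S288C assembly R64.

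The cells were a wsc1 mutant in the BY4741 background, grown in YEPD at 24 °C, so both the treated and the untreated part of each culture carried the mutation. WSC1 codes for a plasma membrane sensor of wall stress. The treated part received Congo Red at 30 µg/ml, which binds wall polysaccharides and interferes with how the wall is put together, and cells were collected at 4 h. Each array hybridised RNA of the treated part together with RNA of the untreated part, with Cy3 marking the treated RNA on arrays 1 and 3 and Cy5 marking it on arrays 2 and 4, and the 4 arrays come from 2 cultures. WSC1 (YOR008C, SLG1 in RefSeq) has a value on 0 of the 4 arrays, which leaves its transcript with no bearing on the labels. No strain with intact WSC1 was used here, and a ratio table holds no level of any transcript.

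Patches and cables are actin structures of yeast that grow and turn over at the bud. Patches are branched networks nucleated by the Arp2/3 complex at sites of endocytosis, and cables are bundles nucleated by formins, coated by tropomyosin and used as tracks by the class V myosin Myo2 to carry secretory vesicles to the bud. Cell wall stress signalled through the Wsc1 and Rho1 route is known to disperse polarised actin for a time.

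The deposited values are log ratios, read here as log2 and as Congo Red over untreated. That direction is likely rather than settled. The 26 tested cell wall integrity targets were listed with earlier results of these data known, and 25 were positive on every array. Turning the signs of arrays 2 and 4 left 0 with a single sign. For those 25 this follows from the first count and is no separate support. Array medians over the tested reading frames ran from -0.13 to -0.05, and the median of all means was -0.10, so a member at 0 lay slightly above the middle of its array. Values correlated across all tested reading frames with Pearson r of 0.64 and 0.71 between arrays of the same dye orientation, and from -0.05 to 0.33 between arrays of opposite orientation. By rank, Spearman correlations were 0.64 and 0.69 within an orientation. Between orientations they were 0.10, -0.09, -0.13 and -0.26. Over the 29 members Pearson r was 0.76 and 0.81 within an orientation and from -0.54 to -0.01 between orientations. These points share arrays and are given as a description.

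No actin or polarity gene passed the test for Congo Red. Of 29 tested members, 0 were called at an adjusted p below 0.05 (limma on culture means, Benjamini-Hochberg over all 3080 reading frames), where 2.60% of all reading frames were called, 1.53% higher and 1.07% lower. At an unadjusted p below 0.05 there were 5 members, ACT1, ARC15, PAN1, ENT1 and BNR1, which is 17.2% of the 29 against 26.2% of all reading frames. A limma fit to the 4 arrays with a term for dye called 1 member, BNR1, where it called 10.4% of all reading frames. Means ran from -0.61 for BNR1 to 0.55 for ENT2, with a median of 0.04, and 20 lay above 0. Of all tested reading frames 32.8% had a mean above 0. Centring each array on its median adds 0.0895 to every mean, which turned the sign of 5 means near 0 (CRN1, ARC19, CAP2, RVS161 and TPM2). After centring 25 of the 29 members lay above 0, and so did 1485 of all 3080 tested reading frames.

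The intervals give the range of effects that these arrays allow. For 22 of the 29 members the 95% interval of the mean lay within 0.5 log units of 0, and for 28 within 1 log unit, the exception being ENT2, at -0.06 to 1.15. The same limits held 63.1% and 94.4% of all tested reading frames. The standard errors given here are moderated ones from limma with n = 2 cultures. They borrow from the variance of all reading frames, and values near 0.09 sit at the floor of this fit. Because the labels do not say how the arrays pair into cultures, each SE, interval and p is the wider or larger of those from the 2 possible pairings.

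**Figure D1:**
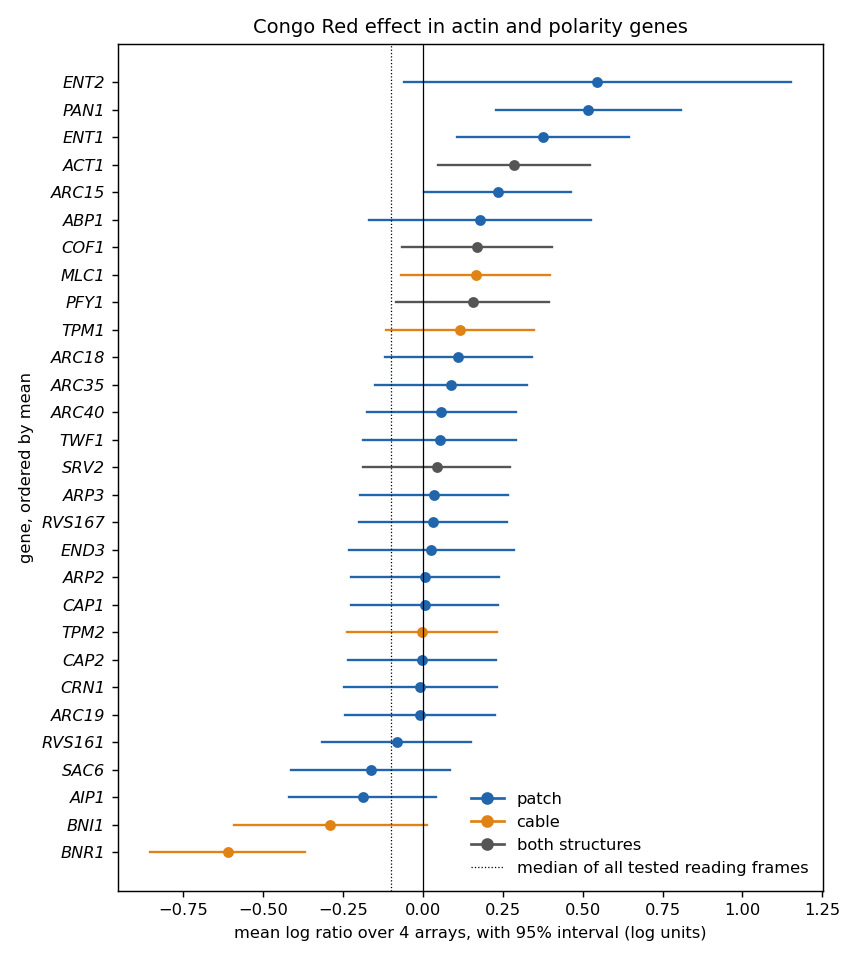
Mean log ratio of each tested actin and polarity gene over 4 arrays (points) with its 95% interval from limma (lines), ordered by mean and coloured by the structure the protein serves. The intervals of PAN1, ENT1, ACT1 and ARC15 lie above 0 and that of BNR1, at -0.61, below it, the other intervals span 0, and none of the 29 genes passed the adjusted threshold.

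Actin and the factors that recycle it came first in the order of roles. ACT1 (YFL039C), the single actin gene of this yeast, was at -0.05, 0.52, 0.22 and 0.44 on arrays 1 to 4. It lay above 0 on arrays 2, 3 and 4 and near 0 on array 1. Its mean was 0.29 ± 0.09 (SE, n = 2 cultures, limma adjusted p = 0.161), which is 1.22-fold if the log base is 2, with a 95% interval from 0.05 to 0.52.

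PFY1 (YOR122C), coding for profilin, which loads actin monomers for the formins, was at -0.02, 0.23, 0.13 and 0.28. COF1 (YLL050C), coding for cofilin, which severs old filaments, was at -0.03, 0.30, 0.07 and 0.35. Like ACT1, both were lowest on array 1 and higher on arrays 2 and 4 than on arrays 1 and 3, and neither was called (limma adjusted p = 0.309 and 0.278). PFY1 and COF1 were chosen for description after their values were seen.

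AIP1 (YMR092C), coding for a partner of cofilin in filament disassembly, lay below 0 on every array, at -0.37, -0.02, -0.27 and -0.09. Its mean of -0.19 ± 0.09 was not called (limma adjusted p = 0.237). The means of the other 3 turnover genes were close to 0, at 0.04 for SRV2 (YNL138W), which recharges actin monomers, 0.05 for TWF1 (YGR080W), the twinfilin gene, and -0.01 for CRN1 (YLR429W), the coronin gene. None of the 7 turnover genes was called for Congo Red or for dye.

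The Arp2/3 complex, which nucleates the branched filaments of patches, was measured in full, with values on all 4 arrays for all 7 subunits. Its values lay between -0.20 and 0.34, the median of the 7 means was 0.06, and 6 means lay above 0. ARP2 (YDL029W), coding for one of the actin-related subunits, was at 0.05, -0.01, 0.02 and -0.03. ARP3 (YJR065C), coding for the other, was at 0.09, -0.04, 0.03 and 0.06. These were the smallest array-to-array spreads of the 29 members, with SDs of 0.03 and 0.06.

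ARC15 (YIL062C), coding for a small subunit, was the one Arp2/3 gene above 0 on every array, at 0.12, 0.34, 0.15 and 0.33. Its mean of 0.23 ± 0.09 had an interval from 0.003 to 0.46 and was not called (limma adjusted p = 0.187). ARC18 (YLR370C) was at 0.30, -0.11, 0.08 and 0.18, with a mean of 0.11 ± 0.09 (limma adjusted p = 0.427). ARC19 (YKL013C), ARC35 (YNR035C) and ARC40 (YBR234C) had means of -0.01, 0.09 and 0.06. None of the 7 subunits had a called dye effect.

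The genes of the proteins that switch the Arp2/3 complex on were poorly covered. ABP1 (YCR088W), which codes for an actin-binding activator of patches, was the one of 5 with 4 values. They were 0.51, 0.26, -0.01 and -0.05, high on arrays 1 and 2 and near 0 on arrays 3 and 4, with a mean of 0.18 ± 0.13 (limma adjusted p = 0.401). LAS17 (YOR181W), the yeast WASP gene, had values on arrays 2 and 4, at 0.0073 and 0.77. The type I myosin genes MYO3 (YKL129C) and MYO5 (YMR109W) each had a value on array 4 alone, at 0.05 and 0.40. VRP1, coding for the WIP-like partner of Las17, is listed as YLR337C, and the table has its older name YLR337W, a row with no values.

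The median of the 4 tested coat genes was 0.45, and all 4 means lay above 0, though none was called. PAN1 (YIR006C), coding for the scaffold that links the coat to Arp2/3 activation, was at 1.11, 0.05, 1.40 and -0.49. It was high on arrays 1 and 3 and low on arrays 2 and 4. Its mean was 0.52 ± 0.11 with an interval from 0.23 to 0.81 (limma adjusted p = 0.0889).

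END3 (YNL084C), coding for a partner of Pan1, was at 0.34, -0.48, 0.77 and -0.54, positive with treated RNA in Cy3 and negative with it in Cy5, and its mean was 0.03 ± 0.10 (limma adjusted p = 0.872). The epsin genes ENT1 and ENT2 code for paralogous clathrin adaptors. ENT1 (YDL161W) was at 0.63, 0.17, 0.96 and -0.25, with a mean of 0.37 ± 0.11 (limma adjusted p = 0.138). ENT2 (YLR206W) was at 1.06, 0.93, -0.15 and 0.35, with a mean of 0.55 ± 0.23 (limma adjusted p = 0.211). That mean depended on single arrays. The limma fit with a dye term, run on 3 arrays, gave an estimate of 0.24 without array 1 and 0.85 without array 3. With arrays 2 and 4 turned the mean was -0.09. ENT2 was high on arrays 1 and 2, whereas ENT1 was high on arrays 1 and 3.

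The difference of ENT1 minus ENT2 was -0.42, -0.77, 1.11 and -0.60 on arrays 1 to 4, so array 3 alone put ENT1 above its paralog. The gap of 1.21 between arrays 1 and 3 in ENT2 was the largest that any member showed between arrays of one orientation, and the median gap between those 2 arrays over the 29 members was 0.15. SLA2 (YNL243W), coding for the protein that couples the coat to actin, had values on arrays 3 and 4, at -0.43 and -0.32. SLA1 (YBL007C), coding for a coat adaptor, had none.

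Bundling, capping and scission genes had means near 0, and values that split by dye in all but RVS167 of the 5. SAC6 (YDR129C), the fimbrin gene, was at 0.02, -0.50, 0.19 and -0.37, with a mean of -0.16 ± 0.09 (limma adjusted p = 0.304). CAP1 and CAP2 code for the partner subunits of the heterodimer that caps filament ends. CAP1 (YKL007W) was at 0.35, -0.34, 0.30 and -0.29, and CAP2 (YIL034C) at -0.28, 0.26, -0.27 and 0.28. Each split cleanly by orientation and the partners did so in opposite directions, while their means were 0.0057 ± 0.09 and -0.0035 ± 0.09 (limma adjusted p = 0.971 and 0.983).

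RVS161 (YCR009C), coding for an amphiphysin that helps to pinch off vesicles, was at 0.63, -0.73, 0.39 and -0.62, with a mean of -0.08 ± 0.09 (limma adjusted p = 0.559). RVS167 (YDR388W), coding for its amphiphysin partner, had a narrower spread, from -0.21 to 0.23, and a mean of 0.03.

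The means of both formin genes lay below 0. BNR1 (YIL159W), coding for the formin of the bud neck, was below 0 on every array, at -1.09, -0.25, -0.87 and -0.23. Its mean of -0.61 ± 0.09 (interval from -0.85 to -0.37, limma adjusted p = 0.0575) missed the threshold. The value corresponds to a 1.53-fold difference if the log base is 2. The limma fit with a dye term called it (adjusted p = 0.0125), where 10.4% of all reading frames were called. So did limma with array 1 paired with array 4 (adjusted p = 0.00765), where 25.6% were called. Without array 2 or without array 4 it was not called. Over the alternatives with all arrays its limma adjusted p ran from 0.00765 to 0.203. With 1 array left out its estimate ran from -0.67 to -0.56.

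BNI1 (YNL271C), coding for the formin of the bud tip, was at -0.74, -0.15, -0.36 and 0.09, with a mean of -0.29 ± 0.11 (limma adjusted p = 0.199). BNI1 lay above BNR1 on all 4 arrays, by 0.10 to 0.52. Both formins were lower on arrays 1 and 3 than on arrays 2 and 4. BUD6 (YLR319C) and SPA2 (YLL021W), coding for polarisome proteins that work with Bni1, had no values.

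The genes of the cable coat and motor had mean ratios close to 0 that came from values of opposite sign by dye. TPM1 (YNL079C), coding for the major tropomyosin, was at 0.71, -0.53, 0.86 and -0.58. TPM2 (YIL138C), coding for the minor one, was at 0.72, -0.67, 0.58 and -0.65. In both genes every array with treated RNA in Cy3 lay above 0 and every array with it in Cy5 lay below, with no overlap. Their means were 0.12 ± 0.09 and -0.0025 ± 0.09 (limma adjusted p = 0.414 and 0.987).

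MLC1 (YGL106W), coding for a light chain of Myo2 and of the ring myosin Myo1, followed the same course at 0.52, -0.24, 0.57 and -0.19, with a mean of 0.17 ± 0.09 (limma adjusted p = 0.282). TPM1 minus TPM2 ranged from -0.01 to 0.28 over the 4 arrays, so the paralogs differed by far less than each differed between orientations. No label says whether the probes tell the paralogs apart. MYO2 (YOR326W), the motor gene, had a value of -0.06 on array 4 alone, and MYO1 (YHR023W) had none.

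**Figure D2:**
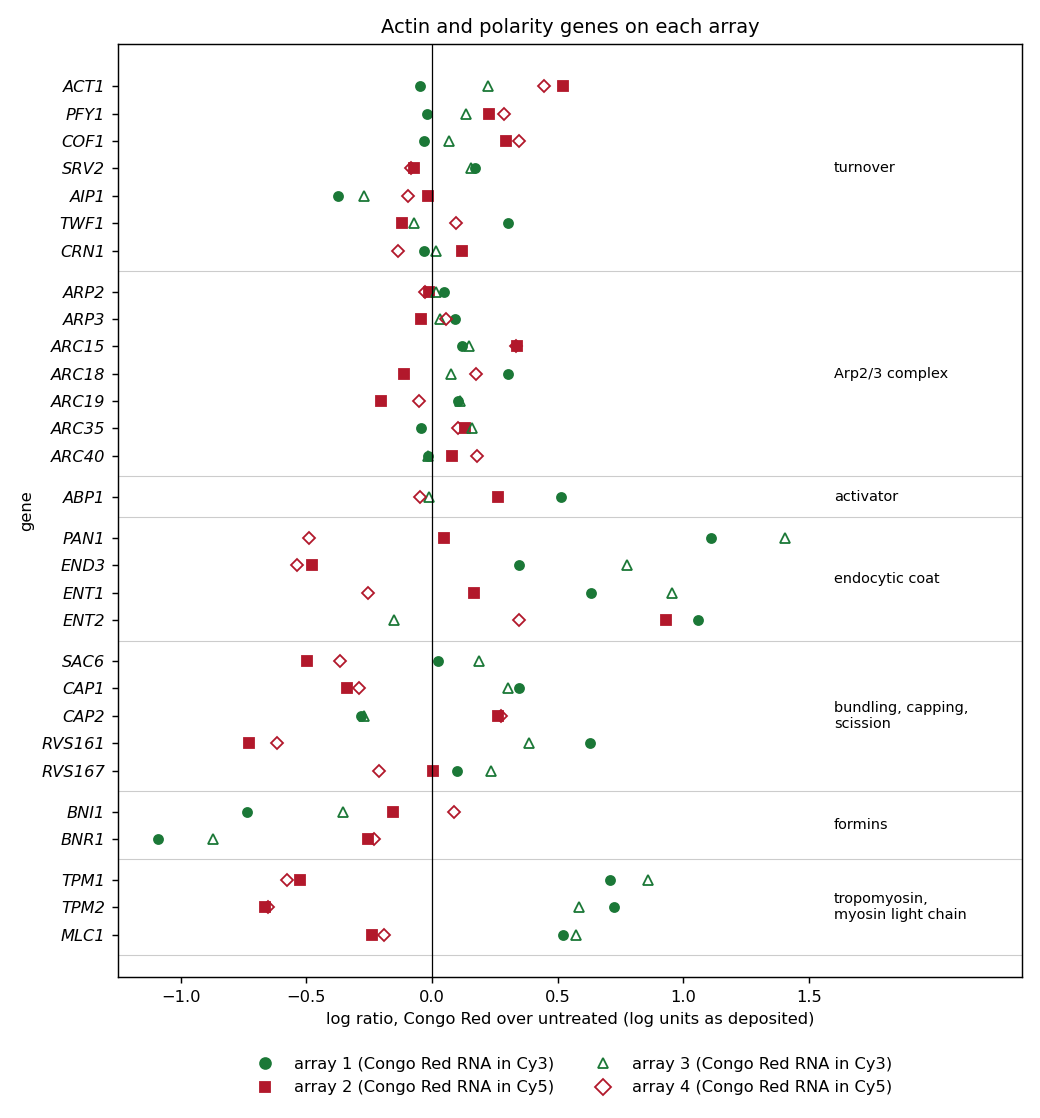
Log ratio of each of the 29 tested genes on each array, grouped by role, with green for treated RNA in Cy3 (arrays 1 and 3) and red for treated RNA in Cy5 (arrays 2 and 4). Arp2/3 genes cluster between -0.20 and 0.34, whereas TPM1, TPM2, RVS161 and CAP1 separate by colour on either side of 0.

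The dependence on the dye was measured as the mean of arrays 1 and 3 minus the mean of arrays 2 and 4. It was called for 8 of the 29 members (27.6%) in the limma fit with a dye term, where 16.0% of all reading frames were called. The ratio was called higher with treated RNA in Cy3 for 7 of the 29 (24.1%, background 8.15%) and higher with it in Cy5 for 1, BNR1 (3.45%, background 7.86%). This fit treats the 4 arrays as independent, although they come from 2 cultures. The 8 calls are 4 of the 5 tested cable genes and 4 of the 20 tested patch genes.

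The largest dye effect was that of PAN1, at 1.48 ± 0.23 (SE, limma adjusted p = 0.0244). TPM1 and TPM2 followed at 1.34 ± 0.14 and 1.31 ± 0.14 (limma adjusted p = 0.0202 for each). RVS161 was at 1.18 ± 0.16 (limma adjusted p = 0.0223) and END3 at 1.07 ± 0.19 (limma adjusted p = 0.0272). Each is a difference between the orientations and is not on the scale of a Congo Red mean. On that scale, with arrays 2 and 4 turned, these genes had means from 0.53 for END3 to 0.74 for PAN1. The Congo Red mean farthest from 0 was -0.61, for BNR1. The dye effects of MLC1 and CAP1 were 0.76 ± 0.14 and 0.64 ± 0.14 (limma adjusted p = 0.0278 and 0.0382), and that of BNR1 was -0.74 ± 0.15 (limma adjusted p = 0.0345).

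The dye effects of CAP2, ENT1 and SAC6, at -0.55, 0.84 and 0.54, were not called (limma adjusted p = 0.0523, 0.0533 and 0.0666). Counted by sign alone, 12 members changed sign with the orientation on all 4 arrays (41.4%, background 28.7%), and 3 members, AIP1, ARC15 and BNR1, kept a single sign as deposited (10.3%, background 28.4%). Without array 2 or without array 4 limma called the dye effect of 0 of the 29, with 10 at an unadjusted p below 0.05 in each case, and the effect of TPM1 was 1.36 and 1.31. Without array 1 it called 8, with ENT1 and ENT2 in place of CAP1 and BNR1, where 21.5% of all reading frames were called. Without array 3 it called 9, with BNI1 added, where 21.4% were called.

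**Figure D3:**
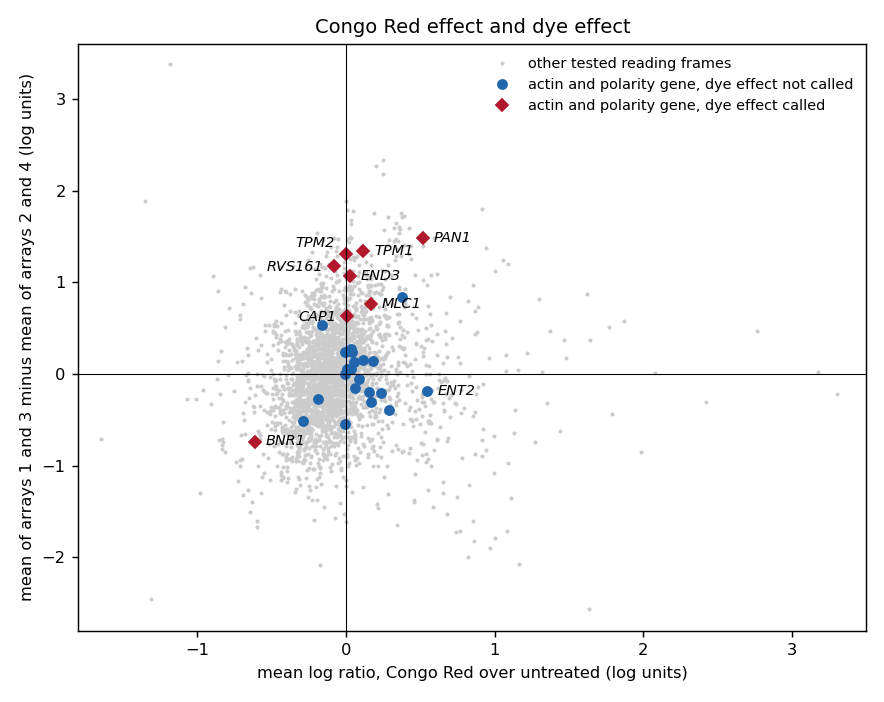
Mean log ratio over 4 arrays (horizontal) against the mean of arrays 1 and 3 minus the mean of arrays 2 and 4 (vertical) for 3080 tested reading frames (grey) and the 29 actin and polarity genes (blue, or red diamonds where the dye effect was called). PAN1, TPM1, TPM2, RVS161 and END3 stand above 1 on the dye axis, and BNR1, at -0.61, lies farthest from 0 among the members on the Congo Red axis.

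Reading the values as plain channel ratios would move these genes from one axis to the other. With arrays 2 and 4 turned, the means became 0.67 ± 0.09 for TPM1, 0.66 ± 0.09 for TPM2, 0.74 ± 0.11 for PAN1, 0.59 ± 0.09 for RVS161 and 0.53 ± 0.10 for END3. Limma on culture means then called 0 of the 29 and 0 of all 3080 reading frames, with 11 and 857 at an unadjusted p below 0.05, and the smallest adjusted p among members was 0.0832.

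Patch and cable genes were compared by their medians, with 20 tested patch genes and 5 tested cable genes. Of 26 listed patch genes and 8 listed cable genes, the others had no value on some or all arrays. ACT1, PFY1, COF1 and SRV2 serve both structures. Over the 4 arrays the median mean was 0.03 for patch genes and -0.0025 for cable genes, a difference of 0.03, and 0 genes of either kind were called, with 3 patch genes and 1 cable gene at an unadjusted p below 0.05.

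By array the order turned with the dye. On arrays 1 and 3 the cable median lay above the patch median, at 0.52 against 0.11 and at 0.57 against 0.09. On arrays 2 and 4 it lay below, at -0.25 against -0.0030 and at -0.23 against -0.05. The cable genes were not uniform within an array either, since on arrays 1 and 3 the tropomyosin and light chain genes lay at 0.52 or above and the formins at -0.36 or below.

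**Figure D4:**
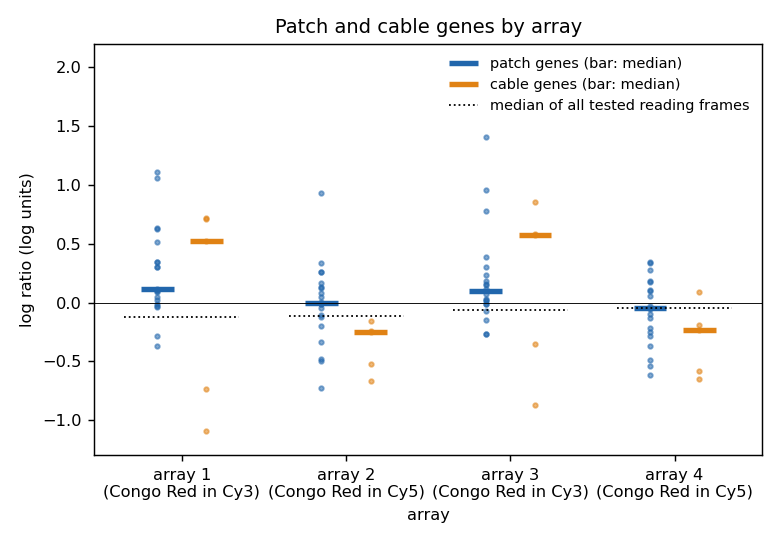
Log ratios of the 20 patch genes (blue) and 5 cable genes (orange) on each array, with bars at their medians and a dotted line at the median of all tested reading frames. The cable median is above the patch median on arrays 1 and 3, at 0.52 and 0.57, and below it on arrays 2 and 4, at -0.25 and -0.23.

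Other genes of the same pathways were counted from lists that hold none of the 39 members. For all 3080 tested reading frames, limma on culture means called 2.60%, and 26.2% had an unadjusted p below 0.05. The fit with a dye term called 10.4%. Of 32 listed genes of the polarity GTPase Cdc42 and of bud site choice, 12 were tested, 0 were called by limma on culture means, and 1 stood at an unadjusted p below 0.05. BOI1, coding for a bud emergence protein that binds Bem1, was at -0.89, -0.37, -0.58 and -0.25, below 0 on every array (mean -0.52 ± 0.10, limma adjusted p = 0.0873, and 0.0244 with a dye term). BUD5, coding for the exchange factor that directs bud sites, had a mean of 0.34 ± 0.15 (limma adjusted p = 0.217). CDC42 itself had a mean of 0.11.

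Of 30 further patch and endocytosis genes, 14 were tested and 0 were called, with 4 at an unadjusted p below 0.05 (background 26.2%). AIM3, coding for a patch protein, was at 0.73, 0.43, 0.60 and 0.27, and YSC84, coding for an actin-binding patch protein, at -0.51, -0.44, -0.50 and -0.44. They lay on opposite sides of 0 on every array, with means of 0.51 ± 0.09 and -0.47 ± 0.09 (limma adjusted p = 0.0821 for each). In the limma fit with a dye term, which called 10.4% of all reading frames, both were called (adjusted p = 0.0193 and 0.0182). So was AIM7, coding for an inhibitor of the Arp2/3 complex. Its mean was -0.38 (limma adjusted p = 0.0390 with a dye term and 0.113 on culture means). A single sign on all arrays was seen in 8 of the 14 and in 3 of the 29 members, where the background was 28.4%, and the difference was not tested.

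Of 18 genes of cable transport and the exocyst, which tethers vesicles at the bud, 11 were tested and 0 were called, with 1 at an unadjusted p below 0.05. That gene was SEC8, an exocyst subunit gene with a mean of -0.33 ± 0.095 (limma adjusted p = 0.151), and EXO84, another, was at -0.27 ± 0.18 (limma adjusted p = 0.359). Of 7 genes of the cytokinetic ring, 4 were tested and 0 were called, also at an unadjusted p below 0.05. IQG1, coding for the IQGAP of the ring, was at -0.22 ± 0.10 and BNI5, coding for a septin-binding protein, at -0.20 ± 0.20 (limma adjusted p = 0.237 and 0.529). The medians of these 4 lists ran from -0.15 to -0.01, against 0.04 for the members and -0.10 for all tested reading frames.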

How the data were processed

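Total RNA of wsc1 cells with and without Congo Red was hybridised to 4 two-channel arrays, with dyes swapped. The authors deposited log ratios, 1 for each array and reading frame, which were taken as log2. Neither labels nor file state the log base, numerator, centring, normalization, image analysis or probes (not given in the sources used), and signal over background cannot be seen in ratios. Of 6209 rows, 2 control spots were left out. Values were used as deposited.

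A culture's value was the mean of its dye-swapped arrays, under both possible pairings, and each gene with 4 values was fitted with limma 3.58.1 (lmFit, eBayes) in R 4.3.3. Of the 2 p-values the larger counted, adjusted by Benjamini-Hochberg at 0.05. Dye effects came from limma on 4 arrays with a dye term. Both fits were run on simulated data with independent noise on each array, which cannot test arrays that share a culture. P-values on culture means rest on the spread between 2 cultures of 1 strain, under an assumed pairing and with variance borrowed from all reading frames. Those of fits with a dye term rest on the spread between 4 single arrays, with variance borrowed likewise.

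The 39 members, the gene lists and the tests were chosen with earlier results of these data known. Genes given with full statistics are those called for Congo Red or dye, the 2 largest means of each role and the paralog pairs, and from other lists the called genes or otherwise the 2 largest means. No sequences or coordinates are given.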

Additional observations from a re-analysis of the deposited data

How the results depend on the processing

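Of the 3080 tested reading frames, limma on culture means called 80. Taking arrays 1 and 4 as a culture gave 787 calls, a dye term on 4 single arrays 320, no dye term 36, centring on the tested reading frames 4, centring and scaling 29, quantile normalization 18, a value on 3 of 4 arrays 214 and turning arrays 2 and 4 0. Centring each array on all its values, an alternative chosen after seeing the data, gave 32. Among the actin and polarity genes the count of 0 became 4 with arrays 1 and 4 as a culture (PAN1, ENT2, BNI1 and BNR1, where 25.6% of all reading frames were called), and 1, BNR1, with a dye term (10.4%) or with 3 of 4 arrays (5.82%). It was 0 under the other settings with all arrays. Leaving out an array, in the fit with a dye term, gave 13 to 823 calls over all reading frames and 0 to 4 members: 3 without array 1 (PAN1, ENT1 and BNR1, where 12.2% of all reading frames were called), 0 without array 2 (0.422%), 4 without array 3 (26.7%) and 0 without array 4 (0.812%), with 2 and 4 members at an unadjusted p below 0.05 where the count was 0. Dye effects were called for 493 reading frames, 0 to 661 with an array left out, and for 8 members, 0 to 9 with an array left out. The losses came without array 2 or array 4, where 747 and 728 reading frames had an unadjusted p below 0.05 and residual spread is left to arrays 1 and 3. Centring or normalizing gave 10 members, adding SAC6 and CAP2, where 18.2% to 18.6% of all reading frames were called. The members' median of 0.04 was 0.16 when centred on all values, a shift that all reading frames share. The patch minus cable difference ran from -0.01 to 0.13, and was -0.31 with arrays 2 and 4 turned. The cause of these changes was not tested. The number of arrays limits the precision. No paired analysis was possible because each array already holds both parts of a culture and gives 1 ratio.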
